A study of Bos taurus with 8 samples.

Results

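The GSK3, β-catenin and TCF genes are the intracellular part of the WNT/β-catenin pathway, and they were followed here in bovine embryonic stem cells (bESCs) moved from feeders to feeder-free culture. The 10 genes were chosen by name from the 32640 listed in the count table: the kinases GSK3A and GSK3B, the scaffolds AXIN1, AXIN2 and APC, the tankyrase TNKS, β-catenin itself (CTNNB1), and the DNA-binding partners TCF7L1, TCF7L2 and LEF1. All 10 had values in every library, and all 10 passed the filter on low counts. RNA was sequenced from 4 bESC lines of XX genotype, called A, C, D and E here, each grown both ways, which gave 4 libraries on mouse embryonic fibroblasts (MEF, an irradiated feeder layer) at passage 15 to 17 and 4 libraries in feeder-free conditions on vitronectin at passage 20 to 22. All cultures were in 5% O2, to which the cells had been adapted over 5 passages. By the methods of the paper, the lines had been derived on MEF in normoxia. The lines came from early or full blastocysts, and the records used here do not say which line came from which stage. The medium was NBFR, which holds FGF2 and the tankyrase inhibitor IWR-1. The methods describe Activin A as an addition for feeder-free culture, whereas the labels name the Activin A medium, NBFRA, for both conditions. Feeders, matrix and passage changed together, and Activin A may have changed with them, so their parts in a difference cannot be told apart. Sequencing batch, for which the paper applied no additional correction, was not examined here. The libraries held 44268717 to 54296425 counts on MEF and 49671478 to 102351560 feeder-free, the largest being that of line D.

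Without a WNT signal, β-catenin in the cytoplasm is held by AXIN and APC, phosphorylated by casein kinase 1 and then by GSK3, and destroyed by the proteasome. A WNT signal stops this destruction complex, β-catenin accumulates, enters the nucleus and joins TCF/LEF factors, which otherwise repress their targets together with Groucho/TLE corepressors. Tankyrases mark AXIN for destruction, so that an inhibitor such as IWR-1 stabilises AXIN and keeps β-catenin low. In pluripotent cells TCF7L1 is known mainly as a repressor, and media with a WNT inhibitor are used to hold cells in a primed state.

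The libraries carried the transcripts of pluripotent cells. The 7 pluripotency markers examined were all expressed in both conditions, with a summed level of 4562 to 5424 CPM (counts scaled to the size of the library) on MEF and 4096 to 4706 CPM feeder-free, and none was called without pairing. In the fit paired by line OTX2 was called lower, SOX2, SALL4 and LIN28B passed the adjusted P-value alone, also lower, and 5 of the 7 were lower in 4 of 4 lines, with a median log2 fold change of -0.35 without pairing. Of all genes tested, 4.53 percent were called lower in the paired fit, 8.12 percent were lower by its adjusted P-value alone, and 20.7 percent were lower in 4 of 4 lines. Fibroblast markers, of which 14 of 16 passed the filter, summed to 436 to 592 CPM on MEF and 278 to 1310 CPM feeder-free. Among them, COL1A2 had 2.71 ± 2.21 CPM (after TMM scaling, as all single-gene levels here, SD, n = 4) on MEF and 0.157 ± 0.187 in feeder-free conditions, PRRX1 had 1.84 ± 0.871 and 0.175 ± 0.288 CPM, and TWIST2 and FAP had counts of 0 in all 4 feeder-free libraries. In the unpaired fit 8 of the 14 fibroblast markers tested were higher feeder-free and 6 were lower. The median of the 14 was 0.30 on the log2 scale. COL1A1 had 353 ± 41.0 CPM on MEF and 507 ± 404 feeder-free, higher in 2 of 4 lines. LUM had 19.0 ± 4.16 and 42.3 ± 27.7 CPM, and FBN1 had 23.7 ± 4.54 and 44.1 ± 27.3 CPM, each higher in 3 of 4 lines. COL3A1 had 0.769 ± 0.593 and 4.69 ± 4.18 CPM, higher in 4 of 4 lines. Of the 5 endoderm, 5 trophoblast, 5 mesoderm and 4 neural markers, 1, 2, 2 and 2 passed the filter. Their sums were 3.74 to 13.8, 20.5 to 34.5, 0.796 to 6.98 and 186 to 269 CPM on MEF, and 3.34 to 5.64, 41.2 to 115, 6.46 to 10.3 and 123 to 196 CPM feeder-free. Most of the trophoblast sum was KRT7, at 24.3 ± 8.29 and 68.4 ± 30.9 CPM. Most of the neural sum was TUBB3, at 218 ± 45.8 CPM on MEF and 161 ± 31.5 feeder-free. TUBB3 was lower by the paired adjusted P-value alone (log2 fold change -0.43, adjusted p = 0.0392). In the fit paired by line 2 fibroblast markers were higher (COL3A1 and POSTN) and 2 lower (COL1A2 and PRRX1). Of all genes tested, 5.52 percent were called higher in that fit. POSTN was near the floor, at 0.183 ± 0.320 CPM on MEF and 0.882 ± 1.19 feeder-free, with 0 in MEF A, MEF E and feeder-free A. The trophoblast gene KRT7 and the mesoderm gene EOMES rose in the fit paired by line, with log2FCs of 1.46 and 1.61 (adjusted p = 0.0129 and 0.0307). The trophoblast genes CDX2, PAG2 and IFNT2 had counts of 0 in every library. The part of these other cell types in the results below was not tested.

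In feeder-free bESCs, GSK3B and TCF7L2 fell, by 36.5 and 42.8 percent of their mean level on MEF, and none of the 10 genes rose. With the libraries paired by line, TNKS passed as lower as well, CTNNB1 and TCF7L1 passed the adjusted P-value but not the fold change threshold, and GSK3A, AXIN1, AXIN2, APC and LEF1 did not pass. A gene was called when its adjusted p from edgeR's quasi-likelihood fit was under 0.05 and its level differed at least 1.5-fold, and log2FC is the fitted log2 ratio of feeder-free to MEF. For this comparison the paper, with the same thresholds, reports no differences in the WNT/β-catenin pathway. Which genes it examined there was not compared here. The calls of the paper are not reproduced by the fits here, although the thresholds are the same. It reports more genes higher than lower in feeder-free conditions, whereas the unpaired fit here called 114 higher and 158 lower. Without pairing, 2 of the 10 were called lower, where 1.00 percent of the 15744 genes tested were lower, 0.724 percent higher and 1.73 percent either way. In the paired fit (replicate block) 3 of the 10 were called lower, where 4.53 percent of all genes were lower and 5.52 percent higher. By the adjusted P-value alone 5 of the 10 were lower and 0 higher in that fit, against 8.12 and 7.67 percent of all genes. The feeder-free values lay wholly below the MEF values for 5 of the 10, namely GSK3B, CTNNB1, TNKS, TCF7L1 and TCF7L2, where this held for 8.36 percent of all genes tested, and none lay wholly above, where this held for 6.21 percent. The same 5 were lower in 4 of 4 lines, a pattern that 20.7 percent of all genes showed, and none of the 10 was higher in 4 of 4 lines, against 20.2 percent. Of the pathway lists described below, 9 of 20 destruction complex partners were also lower in 4 of 4 lines, and 0 higher. For the 18 nuclear partners it was 9 lower and 4 higher, for the 12 targets tested 3 and 1, and for the 8 junction partners 2 and 2. The median log2FC of the 10 was -0.49, against 0.01 over all genes tested. In bulk RNA, fewer cells that express a gene and less of its RNA per cell cannot be told apart. A MEF level may also hold feeder reads, or lack reads taken out with them, and the part of this was not tested.

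**Figure D1:**
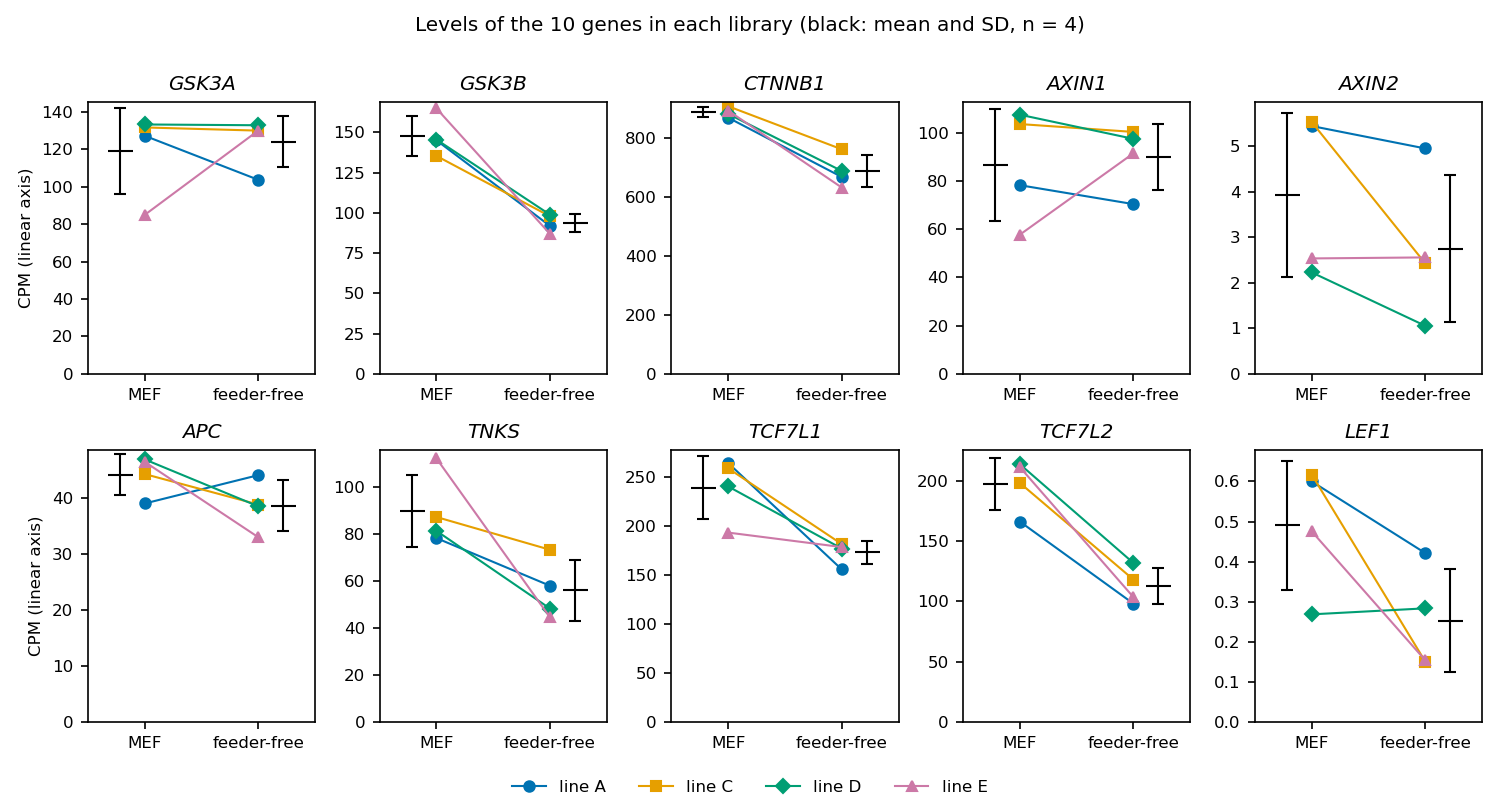
Level of each of the 10 genes in each library, in CPM on linear axes that start at 0, with lines joining the MEF and feeder-free libraries of one bESC line and black bars giving the mean and SD (n = 4 per condition). GSK3B, CTNNB1, TNKS, TCF7L1 and TCF7L2 are lower without feeders in 4 of 4 lines, and their conditions do not overlap, whereas the other panels overlap.

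The GSK3 kinases, which phosphorylate β-catenin for destruction, are encoded by a pair of paralogs. GSK3B fell and GSK3A was not called, and the difference between them was not tested. GSK3B lies on chromosome 1 (64641316 to 64861897, ARS-UCD2.0, the build of all positions given). It had 145, 135, 145 and 165 CPM on MEF in lines A, C, D and E, and 91.8, 97.8, 98.8 and 86.8 CPM in feeder-free conditions. Every feeder-free library was below every MEF library, and the spread was small on both sides, at 148 ± 12.4 and 93.8 ± 5.58 CPM (SD, n = 4). The log2FC was -0.65 (SE 0.11, adjusted p = 0.0331), with log2 ratios within lines from -0.92 in line E to -0.47 in line C. GSK3A, on chromosome 18 from 51032328 to 51042233, had 127, 132, 133 and 84.9 CPM on MEF in lines A, C, D and E, and 104, 130, 133 and 130 CPM in feeder-free conditions. Its values overlapped, with line E low on MEF and line A low in feeder-free conditions. The log2FC of GSK3A was 0.06, with a 95% interval of -0.31 to 0.42 (adjusted p = 0.885). The CPM of different genes also depends on transcript length, so ratios between genes are used here only to follow a shift across libraries. Within libraries, the CPM ratio of GSK3B to GSK3A was 1.14, 1.03, 1.09 and 1.94 on MEF in lines A, C, D and E, and 0.886, 0.753, 0.744 and 0.668 in feeder-free conditions. This ratio was lower in the feeder-free library of every line, and no test was made of it.

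Without any one library the log2FC of GSK3B stayed between -0.69 and -0.60, and the adjusted p ran from 0.0361 to 0.116 in edgeR. The call was kept when line A feeder-free was left out, and was lost without any of the other 7 libraries. In the paired fit (replicate block) the log2FC was -0.65 (adjusted p = 0.00689), and without line E it was -0.55 (adjusted p = 0.0192), short of the fold change threshold.

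None of the scaffold genes AXIN1, AXIN2 and APC was called. AXIN1, the constitutive scaffold of the complex, lies on chromosome 25 from 313099 to 356164 and overlaps LOC112444351, which had 15 to 132 counts per library. It had 78.2, 104, 107 and 57.7 CPM on MEF in lines A, C, D and E, and 70.3, 100, 97.4 and 91.4 CPM in feeder-free conditions. The conditions overlapped, and line E on MEF was the lowest library, as for GSK3A. The log2FC of AXIN1 was 0.05 (95% interval -0.41 to 0.51, adjusted p = 0.923). Without line E on MEF the sign turned, to -0.10 for AXIN1 and -0.077 for GSK3A, and without line C in feeder-free conditions AXIN1 was just below 0. Over the 8 libraries the log2 CPM of AXIN1 and GSK3A correlated at 0.93, a description over libraries that share lines, scaling and condition.

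AXIN2 is both a scaffold and a direct target of β-catenin and TCF, and its transcript is widely used as a readout of the pathway. It lies on chromosome 19 from 62212833 to 62241542 and was counted 108 to 305 times per library. On MEF it had 5.45, 5.54, 2.23 and 2.54 CPM in lines A, C, D and E, and in feeder-free conditions 4.96, 2.43, 1.06 and 2.56 CPM. Lines C and D were lower in feeder-free conditions by 1.18 and 1.05 on the log2 scale, whereas lines A and E differed by -0.14 and 0.01. Its log2FC of -0.52 had a wide interval, from -1.62 to 0.58 (adjusted p = 0.593), and in the paired fit it was -0.60 (adjusted p = 0.183). Line A had the highest level in feeder-free conditions and line D the lowest in both. A test of line in the paired fit, chosen after the values were seen, gave AXIN2 an adjusted p of 0.0641, the lowest of the 10 genes, where 11.8 percent of all genes passed 0.05.

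APC, the large scaffold that recruits β-catenin to the complex, lies on chromosome 10 from 1167671 to 1299376. It had 39.0, 44.2, 46.9 and 46.4 CPM on MEF in lines A, C, D and E, and 44.0, 38.8, 38.5 and 33.0 CPM in feeder-free conditions. Line A was higher in feeder-free conditions and the other lines were lower, with overlap between conditions. The log2FC was -0.19 (95% interval -0.47 to 0.08, adjusted p = 0.409).

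TNKS encodes tankyrase 1, a target of the IWR-1 in the medium, and was lower in feeder-free conditions. The gene lies on chromosome 27 from 25497637 to 25654276. On MEF it had 78.1, 87.1, 81.2 and 112 CPM in lines A, C, D and E, and in feeder-free conditions 57.9, 73.2, 48.2 and 44.4 CPM. The lowest MEF value was above the highest feeder-free value by a small margin, and line E had both the highest and the lowest level of all. The log2 ratio within lines ran from -1.33 in line E to -0.25 in line C. Without pairing the log2FC was -0.68 (SE 0.18, adjusted p = 0.0782), and in the paired fit it was -0.69 (SE 0.17, adjusted p = 0.0247), which passed both thresholds. That paired call was lost without line D (adjusted p = 0.0862) and without line E, where the log2FC was -0.47. Its paralog TNKS2 had 172 ± 21.9 CPM on MEF and 175 ± 8.45 CPM feeder-free (SD, n = 4), a log2FC of 0.02 (adjusted p = 0.945), and was higher in 2 of 4 lines.

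β-catenin is both the effector of the pathway and a part of cadherin junctions. CTNNB1, on chromosome 22 from 13799069 to 13847827, had 870, 909, 883 and 894 CPM on MEF in lines A, C, D and E, and 669, 763, 689 and 633 CPM in feeder-free conditions. The MEF libraries were nearly alike, at 889 ± 16.5 CPM (SD, n = 4), and the feeder-free libraries lay lower and wider, at 688 ± 54.8 CPM (SD, n = 4). The mean was 22.6 percent lower, a log2FC of -0.37 (SE 0.11, adjusted p = 0.107), with ratios within lines of -0.50 to -0.25. Paired by line, the adjusted p was 0.0330 at a log2FC of -0.37, so the difference passed the adjusted P-value and stayed under the fold change threshold. Without any one line in that fit, the adjusted p was 0.0501 to 0.155.

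Among the TCF/LEF factors TCF7L2 fell, with a log2FC further below 0 than that of GSK3B. TCF7L2, on chromosome 26 from 33466304 to 33668681, can activate or repress targets depending on its isoform and on β-catenin. On MEF it had 166, 198, 214 and 211 CPM in lines A, C, D and E, and in feeder-free conditions 98.1, 118, 132 and 103 CPM. All feeder-free libraries were below all MEF libraries, with line A the lowest in both conditions. The log2FC was -0.81 (SE 0.14, adjusted p = 0.0331), and the ratios within lines were -0.76, -0.75, -0.70 and -1.03 for A, C, D and E. In the paired fit the log2FC was -0.81 (adjusted p = 0.00220), and the call held without any one line. Without pairing the call was kept when line A feeder-free was left out, and without each other library in turn the adjusted p was 0.0703 to 0.116.

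TCF7L1, the TCF factor best known from pluripotent cells, lies on chromosome 11 from 49674154 to 49877662. It had 265, 259, 241 and 194 CPM on MEF in lines A, C, D and E, and 156, 182, 177 and 179 CPM in feeder-free conditions. Line E on MEF lay nearest to the feeder-free values, and its log2 ratio of -0.11 was the smallest, against -0.76 in line A. The log2FC was -0.47 (SE 0.13, adjusted p = 0.0834). Paired by line it was -0.46 (adjusted p = 0.0329), which passed the adjusted P-value and stayed under the fold change threshold. The adjusted p of the paired fit was 0.0835, 0.140 and 0.126 without lines A, C and D, and 0.0224 without line E. The CPM ratio of TCF7L2 to TCF7L1 was 0.628, 0.765, 0.888 and 1.09 on MEF in lines A, C, D and E, and 0.629, 0.649, 0.744 and 0.579 in feeder-free conditions, so the values of the conditions overlapped.

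LEF1, which like AXIN2 is a target of the pathway as well as a member of it, was counted only 8 to 34 times per library. It lies on chromosome 6 from 17083384 to 17200676. On MEF it had 0.600, 0.617, 0.268 and 0.476 CPM in lines A, C, D and E, and in feeder-free conditions 0.421, 0.151, 0.283 and 0.154 CPM. The log2FC of -0.95 could not be told from 0 at this depth (95% interval -2.07 to 0.17, adjusted p = 0.313), and line D was slightly higher in feeder-free conditions. TCF7, the remaining gene of the family, had 15.3 ± 2.15 CPM on MEF and 11.6 ± 1.86 CPM feeder-free (SD, n = 4), a log2FC of -0.39 (adjusted p = 0.224).

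Other annotated loci overlap several of these genes, and without a known strand setting their reads could not be told apart. GSK3B overlaps MIR6529A and MIR6529B and LEF1 overlaps LOC132345570, all with counts of 0. TNKS and TCF7L1 overlap LOC112444620 and LOC104973382, which were not analysed here.

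**Figure D2:**
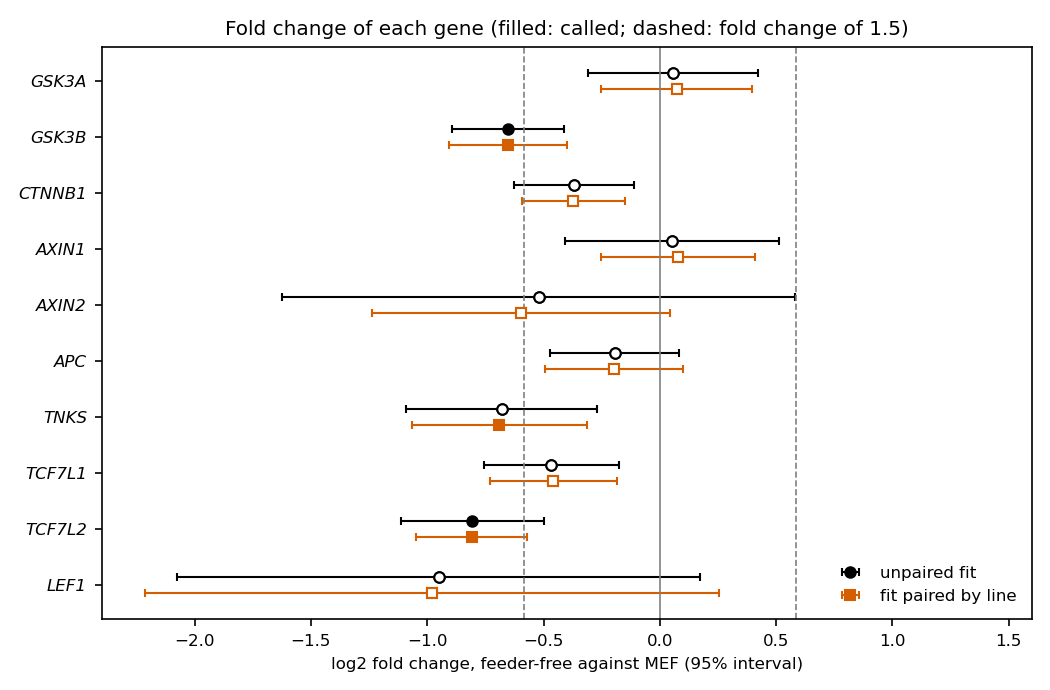
Log2 fold change of feeder-free against MEF for each gene with its 95% interval, in the unpaired fit (black circles) and in the fit paired by line (orange squares), where filled symbols mark called genes and dashed lines a fold change of 1.5. GSK3B and TCF7L2 are called in both fits and TNKS in the paired one, while the intervals of GSK3A, AXIN1, AXIN2, APC and LEF1 include 0.

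The log2 ratios differed between lines. Each line had a single library per condition, so a difference between lines cannot be told from variation of single libraries. Line E had the lowest log2 ratio for GSK3B, CTNNB1, APC, TNKS and TCF7L2, with log2 ratios of -0.92, -0.50, -0.49, -1.33 and -1.03, and it was the line in which GSK3A and AXIN1 were higher in feeder-free conditions, with ratios of 0.61 and 0.66. For TCF7L1 line E had the ratio nearest 0 and line A the lowest. Line C had the ratio nearest 0 for GSK3B, CTNNB1 and TNKS and the lowest for AXIN2 and LEF1. Over the 8 libraries, the log2 CPM of GSK3B correlated with that of TCF7L2 at 0.95 and with that of CTNNB1 at 0.94, and CTNNB1 with TNKS at 0.92. These correlations are descriptions over libraries that share condition and line.

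**Figure D3:**
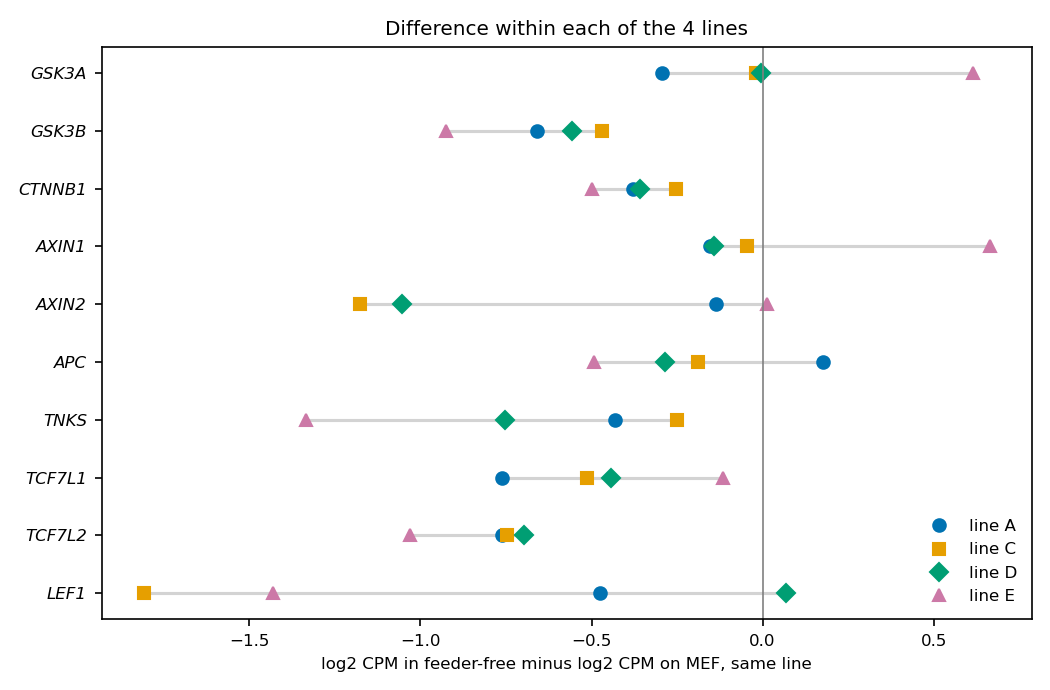
Difference in log2 CPM between the feeder-free and the MEF library of the same line, for each gene and each of the 4 lines, with grey bars spanning the lines. Line E (triangles) is leftmost for GSK3B, CTNNB1, APC, TNKS and TCF7L2 and rightmost for GSK3A and AXIN1, at 0.61 and 0.66.

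GSK3B, TNKS and TCF7L2 are long genes, and the length of the genomic span moved with the fold change over the whole table. Tested genes were divided into 5 groups of equal size by span in the RefSeq annotation. The median log2FC was 0.12 in the shortest group, of 3136 genes up to 6.78 kb, and -0.12 in the longest group, of 3136 genes from 80.2 kb upward. GSK3B, APC, TNKS, TCF7L1, TCF7L2 and LEF1 belong to the longest group, with spans of 221, 132, 157, 204, 202 and 117 kb, whereas GSK3A spans 9.91 kb, AXIN2 28.7 kb, AXIN1 43.1 kb and CTNNB1 48.8 kb. In the longest group 2.30 percent of genes were called lower, and 8.39 percent in the paired fit. The gap between these groups was widest in line E, where the medians were 0.18 and -0.22, and narrowest in line C, at 0.04 and -0.04.

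A correction for span, added after the data were examined, brought the log2FC of 9 of the 10 genes nearer 0, with and without pairing, and moved that of AXIN1 from 0.05 to 0.10 without pairing and from 0.08 to 0.13 with it. TCF7L2 remained called, with a log2FC of -0.66 (adjusted p = 0.0437 without pairing, and 0.00465 in the paired fit). GSK3B had a log2FC of -0.50 in both corrected fits (adjusted p = 0.0460 and 0.0147), which passed the adjusted P-value but not the fold change threshold. TNKS had -0.57 and -0.58 without and with pairing (adjusted p = 0.0969 and 0.0333), also short of the fold change threshold. CTNNB1 and TCF7L1 had paired log2FCs of -0.32 and -0.31 after the correction (adjusted p = 0.0613 and 0.151), and neither passed.

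**Figure D4:**
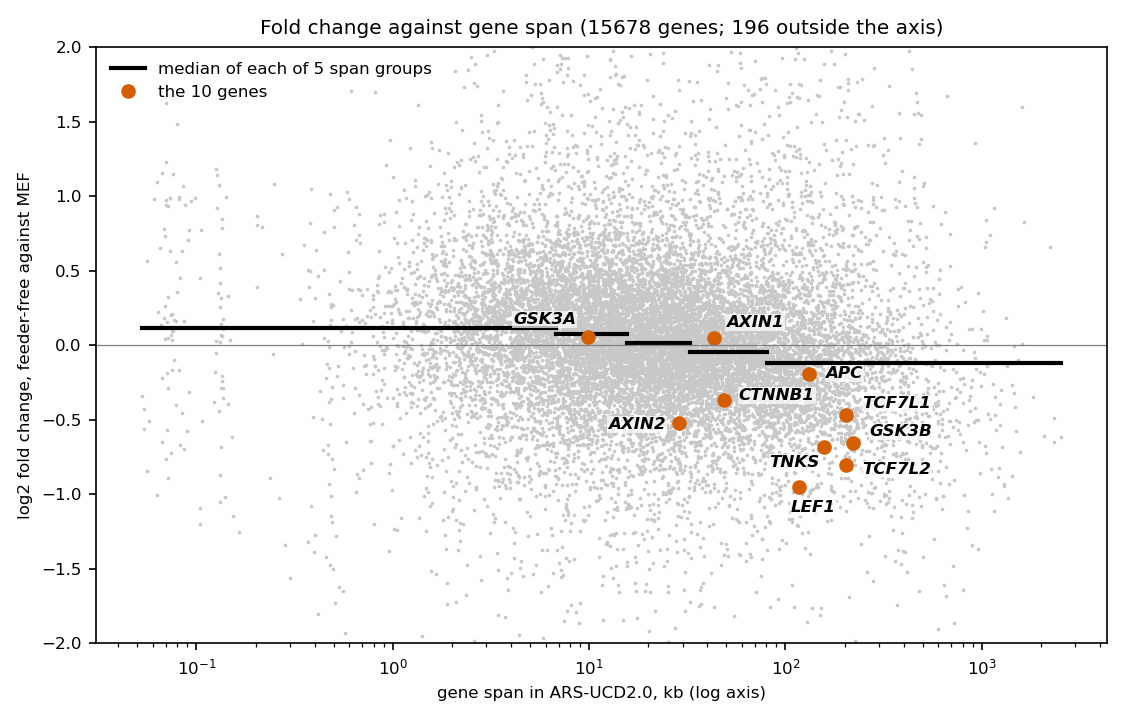
Log2 fold change of feeder-free against MEF, against the genomic span of each gene on a log axis, for 15678 tested genes with a span (grey), of which 196 lie outside the vertical axis, with the median of each of 5 span groups as black bars and the 10 genes in orange. The medians step down from 0.12 to -0.12, and GSK3B, APC, TNKS, TCF7L1, TCF7L2 and LEF1 lie below the bar of the longest group.

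Other genes of the pathway were described from 4 lists that exclude the 10 genes and hold 62 in all. Without pairing edgeR called 2, TLE3 and CTNNA2, both lower, where 1.00 percent of all genes were lower and 0.724 percent higher. In the paired fit (replicate block) 6 were lower and 2 higher, where the shares of all genes were 4.53 and 5.52 percent. The unpaired call of TLE3 was lost without any one library and that of CTNNA2 was kept without line A feeder-free and lost without each other library. In the paired fit TLE3, CTNNA2 and VCL were called without any one line, FRAT1 and FRAT2 without A or E, and CBY1, PYGO1 and CCND1 each without a single line, C, A and D respectively, and with no other line left out. With span correction TLE3 and CTNNA2 were not called without pairing, and CTNNA2 was with it. Of the 20 partners of the destruction complex, all were tested and none was called without pairing, while 5 were lower and 0 higher at an unadjusted P-value under 0.05, where 11.4 percent of all genes were lower and 10.2 percent higher. FRAT1 and FRAT2, which bind GSK3 and keep it from AXIN, fell in the paired fit, with log2FCs of -0.97 and -0.79 (adjusted p = 0.0153 and 0.0181). FRAT1 had 32.9 ± 10.3 CPM on MEF and 16.3 ± 3.63 CPM feeder-free, and FRAT2 had 34.9 ± 9.10 and 20.3 ± 5.39 CPM (SD, n = 4). Those with the most CPM over all 8 libraries, the phosphatase subunit PPP2R1A and the priming kinase CSNK1A1, each had a log2FC of -0.25 (adjusted p = 0.357 and 0.215), lower in 4 of 4 lines. APC2, the paralog of APC, had 31.6 ± 9.01 CPM on MEF and 22.7 ± 4.90 CPM feeder-free (SD, n = 4), a log2FC of -0.48 (adjusted p = 0.268). The median log2FC of the 20 was -0.17, with 13 below 0, where 7784 of the 15744 genes tested were below 0.

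Of the 18 nuclear partners, 1 was called lower without pairing, where 1.00 percent of all genes were lower. In the paired fit 2 were lower and 1 higher, where 4.53 percent of all genes were lower and 5.52 percent higher. TLE3, a Groucho corepressor that binds TCF factors, fell from 219 ± 10.2 CPM to 142 ± 11.7 CPM (SD, n = 4), a log2FC of -0.62 (SE 0.11, adjusted p = 0.0346), lower in 4 of 4 lines and without overlap. PYGO1, a coactivator of β-catenin, fell in the paired fit from 6.30 ± 1.02 to 3.70 ± 0.628 CPM (SD, n = 4), a log2FC of -0.77 (adjusted p = 0.0376). CBY1, an antagonist that binds β-catenin, rose in the paired fit from 16.0 ± 2.90 to 26.0 ± 4.62 CPM (SD, n = 4), a log2FC of 0.70 (adjusted p = 0.0341). Those with the most CPM over all 8 libraries, the corepressors TLE5 and CTBP1, had log2FCs of 0.15 and -0.16 (adjusted p = 0.536 and 0.475). The median of the 18 was -0.22, with 12 below 0, where 7784 of the 15744 genes tested were below 0.

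Among 17 WNT/β-catenin target genes beside AXIN2 and LEF1, 12 were tested in edgeR, and none was called without pairing. At an unadjusted P-value under 0.05, 3 were lower and 0 higher, where 11.4 percent of all genes were lower and 10.2 percent higher. The 5 others, DKK1, TBXT, CDX1, CDX2 and MSX1, were too low for the filter. DESeq2, run without that filter, called MSX1 as higher, with counts of 2, 2, 8 and 0 on MEF and 2, 24, 218 and 8 feeder-free in lines A, C, D and E. CCND1, which encodes cyclin D1, had 25.7 ± 4.69 CPM on MEF and 14.8 ± 9.67 CPM feeder-free (SD, n = 4). In the paired fit it passed as lower (adjusted p = 0.0388), with log2 ratios of -1.77 to 0.06 within lines, below 0 in 3 of 4. ZNRF3, a membrane ligase that removes WNT receptors, had 17.9 ± 0.999 and 13.4 ± 0.728 CPM (SD, n = 4), a log2FC of -0.42 (adjusted p = 0.103). The median of the 12 was -0.37, with 8 below 0, where 7784 of the 15744 genes tested were below 0. Summed over the list, scaled to library size without TMM, the targets came to 89.2 to 101 CPM on MEF and 65.5 to 78.0 CPM feeder-free. CCND1 had the most CPM of the list in both conditions. NKD2 had 6.47 ± 6.21 CPM on MEF and 2.06 ± 1.48 feeder-free (SD, n = 4), lower in 3 of 4 lines. The part of single genes in the difference between the sums was not tested.

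Of the 8 partners of β-catenin at junctions, CTNNA2 fell and, in the paired fit, VCL rose. CTNNA2, an α-catenin that links the cadherin complex to actin, went from 23.3 ± 5.07 CPM to 11.4 ± 2.30 CPM (SD, n = 4), a log2FC of -1.03 (SE 0.21, adjusted p = 0.0466). VCL, which encodes vinculin, a link between adhesion sites and actin, had 256 ± 166 CPM on MEF and 967 ± 629 CPM feeder-free (SD, n = 4), and its paired log2FC was 1.86 (adjusted p = 0.000298). CTNNA1, another α-catenin, had 541 ± 79.6 and 553 ± 125 CPM (SD, n = 4), a log2FC of 0.03 (adjusted p = 0.946). The median of the 8 was -0.12, with 4 below 0, where 7784 of the 15744 genes tested were below 0.

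**Figure D5:**
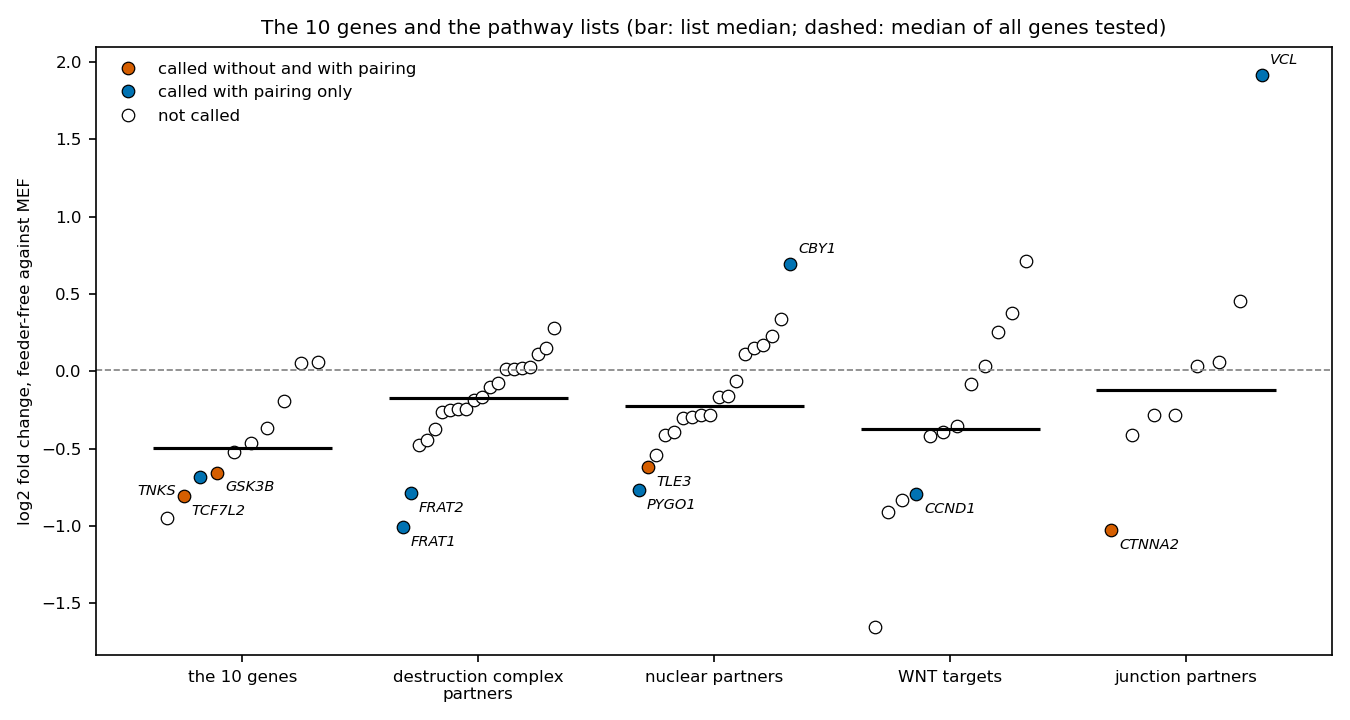
Log2 fold change of feeder-free against MEF for the 10 genes and for the tested genes of 4 pathway lists, each circle a gene, with bars for list medians and a dashed line for the median of all genes tested. TCF7L2, GSK3B, TLE3 and CTNNA2 are called in both fits (orange), further genes with pairing only (blue), and the list medians run from -0.49 for the 10 genes to -0.12 for the junction partners.

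The genes whose pattern over the 8 libraries was most like that of a member were found by Pearson correlation of log2 CPM. For GSK3B they were WDFY1, TAOK1 and UBE2R2, at 0.996, 0.994 and 0.990. CTNNB1 was matched by ARID1B and MDC1, at 0.993 and 0.988. TCF7L1 was followed by SELENOO, HNRNPA0 and CDK8, at 0.974 to 0.976. For AXIN2 the nearest were KCNQ5, LOC104975719 and APTX, at 0.974, 0.958 and 0.957, of which KCNQ5 had 0.437 CPM on MEF. Each correlation describes 8 libraries from 4 lines, chosen as the highest of all genes tested.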

How the data were processed

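RNA of 4 bESC lines in 2 conditions was sequenced as paired-end reads. The authors trimmed reads with Trimmomatic, aligned them to ARS-UCD2.0 with STAR, removed optical duplicates with Picard and alignments of low mapping quality with samtools, and deposited raw counts per gene from featureCounts, with Subread 1.6.2 named in the submitters' processing notes. The strand setting is not given in the sources used here. The methods also describe the removal of reads of a pure MEF sample, which was not analysed here. Whether the deposited MEF counts were made before or after that removal is not given in the sources used here, so a MEF level may hold feeder reads or lack reads taken out with them.

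Of 32640 genes, 3 without values were left out. No 2 libraries of a condition were alike (smallest chi-square per degree of freedom 40.8 over 12 pairs). The unpaired fit used condition as its single term in edgeR 4.0.16 under R 4.3.3 (filterByExpr, TMM, glmQLFit, glmQLFTest), and P-values were adjusted by Benjamini-Hochberg for the 15744 genes tested. Log2 CPM used a prior count of 2. Lines were cultured in both conditions, and deviations from condition means correlated at 0.421 to 0.664 within lines and at -0.523 to 0.249 between lines, so a fit with line as a replicate block was made beside the unpaired one. Alternatives were DESeq2 1.42.0, other scaling, other filters on low counts, no fold change threshold, and leaving out each library or line. Span correction used, for each library, a lowess curve (smoother span 0.3) of the log2 CPM deviation from the gene mean on log10 span as an offset. It was added after the data were examined, as were the paired fits with it and with no fold change threshold. For spans, the RefSeq table of ARS-UCD2.0 was used, in which 30268 genes matched by symbol. It gives no exon lengths, so levels of different genes were not compared per length, although this had been planned. Sequences were not used here.

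The 10 genes and the lists were chosen with earlier results of these data known. Named genes were the 10, list genes called in either fit, the 2 with the most CPM in each list, the paralogs TNKS2, APC2 and TCF7, and for 4 of the 10 the 3 most correlated genes, of which 1 is not reported here. The 4 lines were independent. In the paired fit, P-values measure how the difference between feeder-free and MEF libraries of the same line spreads across lines. The unpaired fit treats the 8 libraries as independent, although libraries of the same line correlated, as given above.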

Additional observations from a re-analysis of the deposited data

Results flagged for a closer look

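Each of the 10 genes was examined in both conditions, and 1 library stood well apart from its condition in 3 of the 20 cases, where chance alone gives about 1. GSK3A on MEF in line E was at 6.41 log2 CPM, against 6.99 to 7.06 in the other MEF libraries. In feeder-free conditions line A was lowest for GSK3A, at 6.70 against 7.02 to 7.05, and for TCF7L1, at 7.28 against 7.47 to 7.51.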

How the results depend on the processing

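The log2 fold changes kept their sign for 8 of the 10 genes in every alternative that gave a value, whereas the calls depended on the fit. Without pairing, 2 of the 10 were called lower, and this was 0 to 2 without any one library. Except without line A feeder-free, no adjusted P-value of the 10 was then under 0.05, while 5 of the 10 had an unadjusted P-value under 0.05. Span correction gave 1, without and with the replicate block, the replicate block without line E gave 1, and the replicate block with no fold change threshold gave 5. DESeq2 and the replicate block called TNKS as lower beside GSK3B and TCF7L2. GSK3A ran from -0.077 to 0.13 and AXIN1 from -0.10 to 0.17 without any one library, and in the replicate block without line E they were -0.093 and -0.10. LEF1 was not tested where at least 10 counts were required in every library.

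Of the 62 pathway genes, 2 were lower and 0 higher in edgeR without pairing, with 2 higher at an unadjusted P-value under 0.05, and 5, 6, 3 and 1 lower among the destruction complex, nuclear, target and junction lists, TCF7 being in both the nuclear and the target list. Without any one library the lower count was 0 to 1. It was 0 with no filter, with no scaling beyond library size and with span correction. With DESeq2 5 were lower and 3 higher. The replicate block gave 6 lower and 2 higher, with span correction 5 and 2, with no fold change threshold 10 and 2, and without line A 7 and 1, without C 3 and 2, without D 3 and 1, and without E 5 and 1.

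Over all genes 114 were higher and 158 lower. No filter gave 73 and 97, no scaling 91 lower, and at least 10 counts in every library 199 higher. DESeq2 gave 746 and 541. The replicate block gave 869 and 713, with span correction 860 and 623, with no fold change threshold 1207 and 1279, and without lines A, C, D and E 918, 561, 376 and 662 higher and 733, 496, 366 and 497 lower. Without any one library the counts were 0 to 259 higher and 0 to 231 lower. Leaving out line A feeder-free raised them, and leaving out any other library lowered them to 6 or fewer in all. Where 0 genes were called in edgeR, without MEF D or E or feeder-free C or E, 2701 to 3190 genes had an unadjusted P-value under 0.05. The cause was not tested.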
